A study of Mus musculus with 16 samples.

Results

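The 10 genes described here encode enzymes and helper proteins that modify, fold, trim and crosslink collagen: the lysyl oxidases *Lox*, *Loxl1* and *Loxl2*, the lysyl hydroxylases *Plod1*, *Plod2* and *Plod3*, the prolyl 4-hydroxylase subunits *P4ha1* and *P4ha2*, the collagen chaperone *Serpinh1* and the procollagen C-proteinase enhancer *Pcolce*. They were named by function and are 10 of the 49066 gene symbols that the deposited BAT table gave after its transcripts were summed per gene. The mice were C57BL6/J males and females fed a HFD for 12 weeks from 6 weeks of age, with 4 libraries per sex and genotype. KO mice carried both floxed *Gdf15* alleles and Cre recombinase under the *Ucp1* promoter, which removes *Gdf15* from thermogenic adipocytes and leaves it in the other cells of the tissue. WT mice carried the same floxed alleles without Cre, so an effect of Cre itself and an effect of the deletion cannot be told apart.

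Collagen chains are hydroxylated on prolines and lysines in the endoplasmic reticulum, where P4HA subunits work in a complex with P4HB and where SERPINH1 binds the folded triple helix. Outside the cell the C-propeptide is removed by BMP1-type proteinases, helped by PCOLCE, and lysyl oxidases then oxidise lysines and hydroxylysines to start the crosslinks. In adipose tissue fibrillar collagen is made mostly by fibroblasts and progenitors, while adipocytes lie in a basement membrane of type IV collagen.

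The labels were checked first with the deleted gene, in TPM, a unit already divided by transcript length and library total. In males, *Gdf15* (ENSMUSG00000038508, chromosome 8) was at 0.368, 0.69, 1.55 and 3.81 TPM in the WT libraries and at 0.0915, 0.0801, 0.255 and 0.272 TPM in the KO libraries. All 4 male KO libraries lay below all 4 male WT libraries, with a log2 difference of -1.38 (exact permutation p = 0.0286, 4 against 4). In females, *Gdf15* was at 0.0622, 0.311, 0.17 and 0.29 TPM in the WT libraries and at 0, 0, 0.0794 and 0 TPM in the KO libraries. The highest female KO library lay above female WT replicate 1, and the log2 difference was -0.43 (exact permutation p = 0.0571, 4 against 4). WT males lay above WT females for *Gdf15* without overlap, by 1.31 log2. *Gdf15* had a mean under 1 TPM in 3 of the 4 groups and was not among the genes tested by limma.

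The tissue was checked with *Ucp1*, a thermogenic gene of brown adipocytes. In males, *Ucp1* was at 3074, 3963, 4355 and 3302 TPM in the WT libraries and at 3726, 3821, 3626 and 3847 TPM in the KO libraries. In females, *Ucp1* was at 3139, 2662, 3258 and 2601 TPM in the WT libraries and at 3797, 3384, 2353 and 4423 TPM in the KO libraries. The *Ucp1* groups overlapped in both sexes, with log2 fold changes of KO over WT of 0.05 in males (adjusted p = 0.85) and 0.23 in females (adjusted p = 0.547). Here and below the fold change is the limma estimate on log2(TPM + 0.5), and p was adjusted over all genes tested by the Benjamini-Hochberg method.

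Among the 10 genes *Serpinh1* was the most abundant in mean TPM over the 16 libraries, at 126 TPM, and it lay above *Pcolce* in 16 of 16 libraries. *Pcolce* followed at 49.8 TPM and lay above *Plod1* in 14 libraries. *Plod1* had a mean of 24.6 TPM and lay above *Plod3*, at 19.5 TPM, in all 16 libraries. *P4ha1* had a mean of 11.2 TPM, with the highest library 15.5-fold above the lowest. *Loxl1* at 7.43 TPM, *P4ha2* at 6.86 TPM and *Lox* at 4.63 TPM came next in mean level. *Loxl2* at 1.99 TPM and *Plod2* at 1.44 TPM were the least abundant members. *Serpinh1* stood at percentile 95.4 of mean level among the tested genes and *Plod2* at percentile 7.23.

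**Figure D1:**
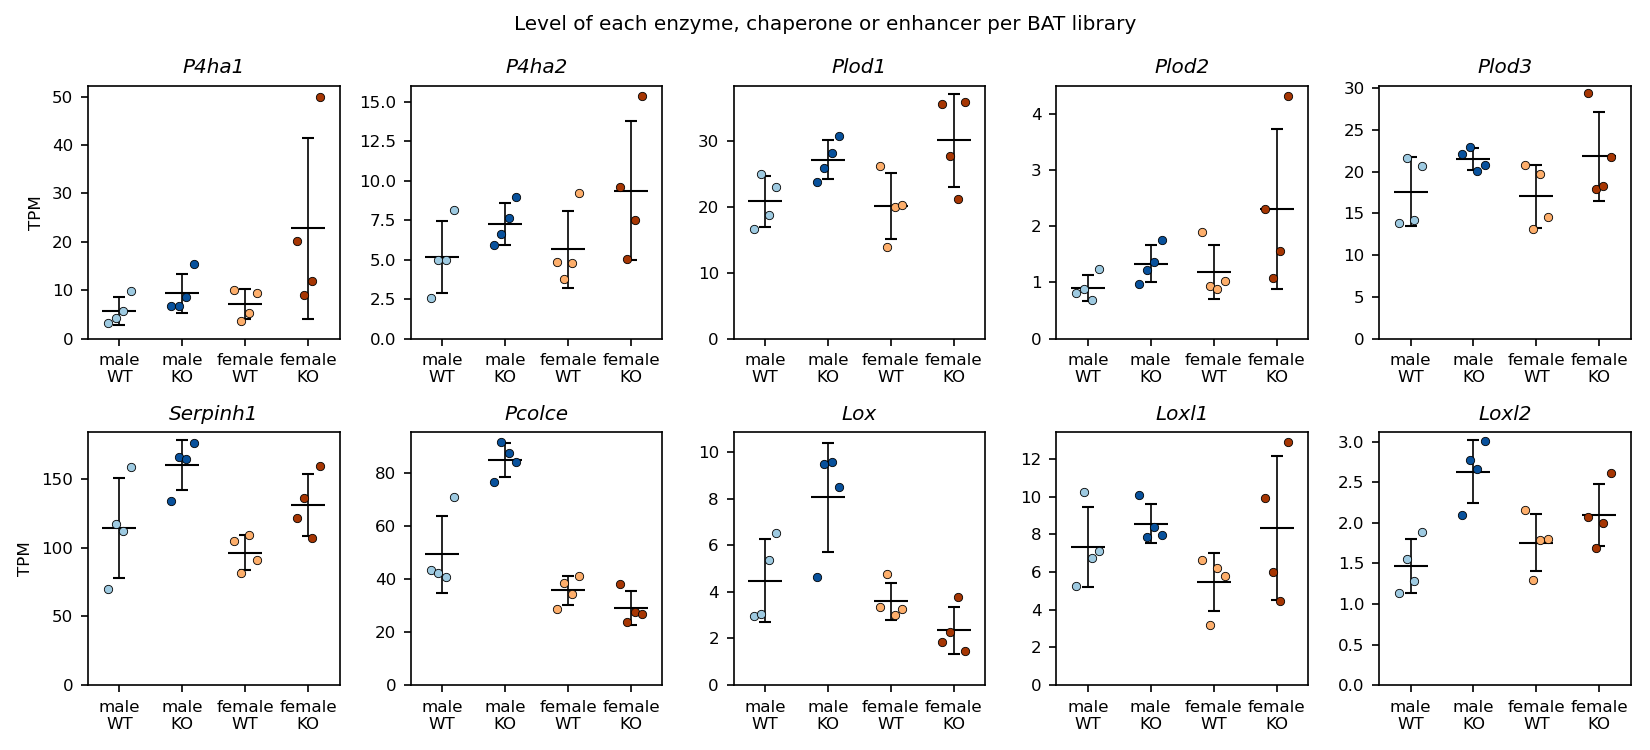
TPM of each of the 10 genes (vertical axis, 1 panel per gene) in the 4 groups of BAT (horizontal axis), with 1 point per library and mean ± SD. *Pcolce* separated in males, with means of 49.3 TPM in WT and 85.0 TPM in KO, and overlapped in females, with means of 35.7 and 29.1 TPM.

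In males all 10 members had a positive log2 fold change between KO and WT, and all 10 stayed positive under the 3 other scalings of the libraries. The median log2 fold change of the members in males was 0.53, while the median of all tested genes was 0.16 and 79.9% of all genes were positive. By limma, 0 of the 10 members had an adjusted p under 0.05 in males, against 1 of 12177 genes tested (0.00821%), and 5 members were higher at an unadjusted p under 0.05, against 17.7% of all genes. For 2 members, *Loxl2* and *Pcolce*, every male KO library lay above every male WT library, while 9.54% of all genes did the same. The count of 5 depended on single libraries: it was 9 without male WT replicate 4, and 2 without male WT replicate 1, male KO replicate 3 or male KO replicate 4. It was 3 without male WT replicate 3 or male KO replicate 2. The count of 2 members without overlap was 6 without male WT replicate 4, 5 without male KO replicate 1 and 4 without male WT replicate 2.

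In females 8 members had a positive log2 fold change and 2, *Lox* and *Pcolce*, a negative one, and this split was 8 and 2 under every scaling. The median log2 fold change of the members in females was 0.47, while that of all tested genes was 0.10 and 62.7% of all genes were positive. By limma, 0 of the 10 members had an adjusted p under 0.05 in females, against 0 of 12141 genes (0%). At an unadjusted p under 0.05, 3 members were higher in female KO, against 11.6% of all genes, and 1 member was lower, against 5.46% of all genes. The 3 higher members were *Plod1*, *P4ha1* and *Serpinh1*, and the lower member was *Lox*. No member separated the female groups without overlap, neither above (4.9% of all genes) nor below (3.19% of all genes). The count of 3 was 0 without female WT replicate 2, 1 without female WT replicate 3 or female KO replicate 4, and 2 without female WT replicate 4 or female KO replicate 1. It was 4 without female KO replicate 2 or female KO replicate 3. The count of 1 lower member was 0 without female WT replicate 1, 2 or 4 or female KO replicate 2 or 4, and also 0 with median-of-ratios scaling, with no TPM minimum, with prefix as a covariate and in a single fit of all 16 libraries. Scaled without mitochondrial genes, 2 members were lower and 2 higher at an unadjusted p under 0.05. Without female KO replicate 3, *Plod1* and *Serpinh1* separated upward and *Lox* downward. Leaving out female WT replicate 1 separated *Plod1* and *Plod2*, and leaving out female KO replicate 2, female WT replicate 4 or female WT replicate 3 separated *P4ha1*, *P4ha2* and *Serpinh1* in turn. *Pcolce* separated downward without female KO replicate 1.

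**Figure D2:**
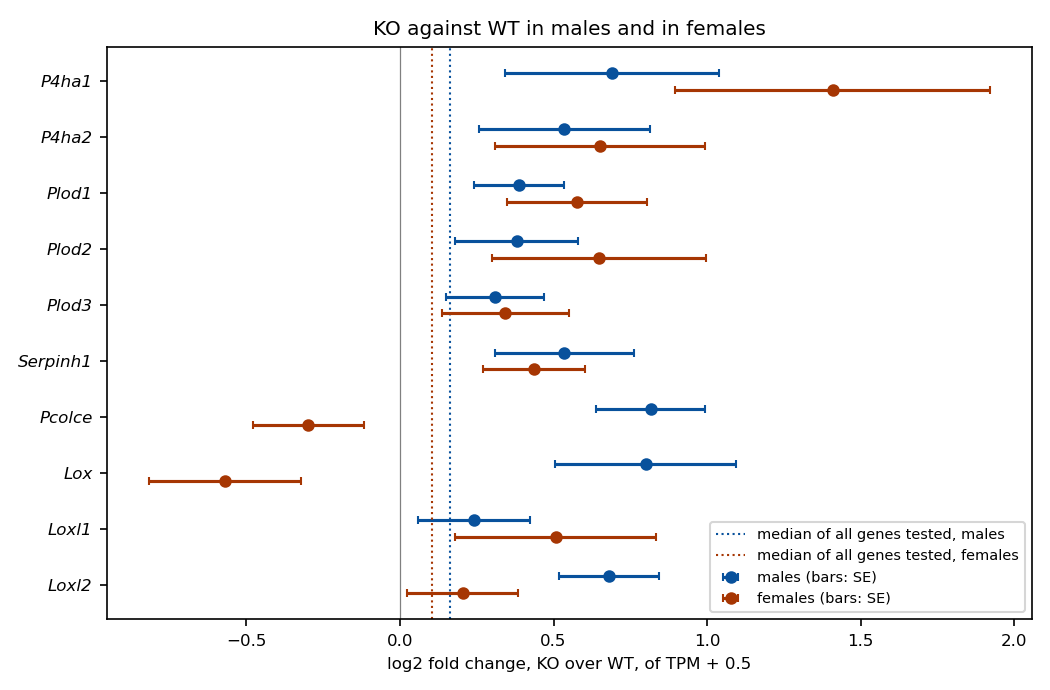
log2 fold change of KO against WT (horizontal axis, limma estimate ± SE on log2(TPM + 0.5)) of each of the 10 genes in males and in females, with dotted lines at the medians of all tested genes, 0.16 and 0.10. *Lox* stood at 0.80 in males and -0.57 in females, and *Pcolce* at 0.82 and -0.30.

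*Lox* (ENSMUSG00000024529, chromosome 18) encodes the lysyl oxidase that starts crosslinks in collagen and elastin. In males, *Lox* was at 2.97, 3.06, 5.38 and 6.55 TPM in the WT libraries and at 4.65, 9.52, 9.58 and 8.53 TPM in the KO libraries. In females, *Lox* was at 3.36, 4.78, 3.01 and 3.25 TPM in the WT libraries and at 1.86, 2.29, 3.79 and 1.46 TPM in the KO libraries. Male KO replicates 2 to 4 lay above every male WT library, and male KO replicate 1 lay inside the WT range. Female KO replicates 1, 2 and 4 lay below every female WT library, and female KO replicate 3 lay inside the range. The log2 fold change of *Lox* was 0.80 in males (SE 0.29, adjusted p = 0.226) and -0.57 in females (SE 0.25, adjusted p = 0.285). The exact permutation p for *Lox*, 4 against 4 libraries, was 0.0857 in males and 0.114 in females. Leaving out 1 library at a time moved the *Lox* estimate between 0.65 and 1.03 in males and between -0.79 and -0.41 in females.

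*Loxl2* (ENSMUSG00000034205, chromosome 14), a lysyl oxidase-like enzyme with scavenger receptor domains, was near the lower limit of testing. In males, *Loxl2* was at 1.13, 1.55, 1.29 and 1.89 TPM in the WT libraries and at 2.1, 2.77, 2.66 and 3.01 TPM in the KO libraries. In females, *Loxl2* was at 2.16, 1.3, 1.79 and 1.8 TPM in the WT libraries and at 2.08, 1.69, 2 and 2.62 TPM in the KO libraries. The male groups did not overlap for *Loxl2*, while in females only KO replicate 4 lay above the highest WT library. Its log2 fold change was 0.68 in males (SE 0.16, adjusted p = 0.164) and 0.20 in females (SE 0.18, adjusted p = 0.538). That female estimate of *Loxl2* was 0.10 without female WT replicate 2 and 0.11 without female KO replicate 4, and the male one stayed between 0.60 and 0.78. The exact permutation p of *Loxl2*, 4 against 4 libraries, was 0.0286 in males and 0.286 in females.

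*Loxl1* (ENSMUSG00000032334, chromosome 9) encodes a lysyl oxidase-like enzyme that acts on elastic fibres. In males, *Loxl1* was at 5.24, 10.3, 6.72 and 7.14 TPM in the WT libraries and at 10.1, 7.85, 8.41 and 7.96 TPM in the KO libraries. In females, *Loxl1* was at 6.65, 3.19, 6.23 and 5.78 TPM in the WT libraries and at 9.91, 6.02, 4.48 and 12.9 TPM in the KO libraries. No male KO library lay above male WT replicate 2 for *Loxl1*, and in females KO replicates 1 and 4 lay above every WT library. Between genotypes *Loxl1* had a log2 fold change of 0.24 in males (SE 0.18, adjusted p = 0.474) and 0.51 in females (SE 0.33, adjusted p = 0.425). Leaving out single libraries moved *Loxl1* in males to 0.10 without male WT replicate 1 and 0.41 without male WT replicate 2, and in females to 0.27 without female KO replicate 4, 0.29 without female WT replicate 2 and 0.75 without female KO replicate 3. *Loxl1* and *Lox* thus had their higher estimates in opposite sexes.

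*Plod1* (ENSMUSG00000019055, chromosome 4) encodes a lysyl hydroxylase that acts on helical lysines of collagen. In males, *Plod1* was at 16.6, 25.1, 18.7 and 23 TPM in the WT libraries and at 23.9, 26.0, 28.2 and 30.9 TPM in the KO libraries. In females, *Plod1* was at 26.2, 13.9, 20.1 and 20.2 TPM in the WT libraries and at 35.6, 27.8, 21.2 and 36.0 TPM in the KO libraries. In each sex 3 KO libraries lay above the highest WT library, and the remaining ones were male KO replicate 1 and female KO replicate 3. The log2 fold change of *Plod1* was 0.39 in males (SE 0.15, adjusted p = 0.232) and 0.58 in females (SE 0.23, adjusted p = 0.266). The exact permutation p of *Plod1* was 0.0571 in males and also 0.0571 in females, 4 against 4 libraries each.

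*Plod3* (ENSMUSG00000004846, chromosome 5) encodes a lysyl hydroxylase that also transfers sugars to hydroxylysine. In males, *Plod3* was at 13.8, 21.6, 14.2 and 20.7 TPM in the WT libraries and at 22.1, 23, 20.1 and 20.8 TPM in the KO libraries. In females, *Plod3* was at 20.8, 13.2, 19.7 and 14.5 TPM in the WT libraries and at 29.4, 17.9, 18.2 and 21.8 TPM in the KO libraries. The ranges of *Plod3* overlapped in both sexes, with 2 KO libraries above the highest WT library in each. For *Plod3* the log2 fold change was 0.31 in males (SE 0.16, adjusted p = 0.313) and 0.34 in females (SE 0.21, adjusted p = 0.398), so its estimates in the sexes differed by only -0.03. Leaving out 1 library moved *Plod3* between 0.21 and 0.42 in males, the lowest without male WT replicate 1, and between 0.19 and 0.44 in females, the lowest without female KO replicate 1.

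*Plod2* (ENSMUSG00000032374, chromosome 9) encodes the lysyl hydroxylase that acts on telopeptide lysines. In males, *Plod2* was at 0.807, 0.891, 0.685 and 1.24 TPM in the WT libraries and at 0.978, 1.22, 1.37 and 1.76 TPM in the KO libraries. In females, *Plod2* was at 1.89, 0.935, 0.89 and 1.03 TPM in the WT libraries and at 2.31, 1.09, 1.56 and 4.32 TPM in the KO libraries. Male WT replicate 4 and female WT replicate 1 were the WT libraries that overlapped with KO for *Plod2*. *Plod2* had a log2 fold change of 0.38 in males (SE 0.20, adjusted p = 0.322) and 0.65 in females (SE 0.35, adjusted p = 0.354). Its group means in males were 0.905 TPM in WT and 1.33 TPM in KO. In the male fit *Plod2* therefore passed the minimum mean of 1 TPM only through its KO group. With no TPM minimum all 10 members were also positive in males. Without female KO replicate 4 the *Plod2* estimate in females was 0.35, and leaving out female KO replicate 2 gave 0.88; in males it ranged from 0.27 to 0.49 log2.

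*P4ha1* (ENSMUSG00000019916, chromosome 10) encodes a catalytic subunit of prolyl 4-hydroxylase. In males, *P4ha1* was at 3.22, 4.19, 5.6 and 9.82 TPM in the WT libraries and at 6.72, 6.74, 8.55 and 15.3 TPM in the KO libraries. In females, *P4ha1* was at 10.0, 3.62, 5.24 and 9.49 TPM in the WT libraries and at 20.2, 8.98, 12.0 and 49.8 TPM in the KO libraries. Male KO replicate 4 was the only male KO library above every male WT library for *P4ha1*. Female KO replicates 1, 3 and 4 lay above every female WT library and replicate 4 was far above the other 3. The log2 fold change of *P4ha1* was 0.69 in males (SE 0.35, adjusted p = 0.306) and 1.41 in females (SE 0.51, adjusted p = 0.247), the largest female estimate among the members. Without female KO replicate 4 the *P4ha1* estimate in females was 0.93, and the estimate in males was 0.44 without male KO replicate 4 and 0.97 without male WT replicate 4. The exact permutation p of *P4ha1* was 0.143 in males and 0.0857 in females, 4 against 4 libraries each.

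*P4ha2* (ENSMUSG00000018906, chromosome 11) encodes another catalytic subunit of the same enzyme. In males, *P4ha2* was at 2.6, 4.94, 4.96 and 8.15 TPM in the WT libraries and at 5.92, 6.59, 7.65 and 8.96 TPM in the KO libraries. In females, *P4ha2* was at 4.83, 3.78, 4.76 and 9.22 TPM in the WT libraries and at 9.6, 5.02, 7.51 and 15.4 TPM in the KO libraries. WT replicate 4 was the highest WT library for *P4ha2* in both sexes and lay inside the KO range. *P4ha2* had a log2 fold change of 0.53 in males (SE 0.28, adjusted p = 0.318) and 0.65 in females (SE 0.34, adjusted p = 0.349). The *P4ha2* estimate in males was 0.28 without male WT replicate 1 and 0.77 without male WT replicate 4, and in females it was 0.39 without female KO replicate 4 and 0.90 without female WT replicate 4 or female KO replicate 2.

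*Serpinh1* (ENSMUSG00000070436, chromosome 7) encodes the collagen chaperone of the endoplasmic reticulum. In males, *Serpinh1* was at 69.7, 117, 112 and 159 TPM in the WT libraries and at 134, 166, 164 and 176 TPM in the KO libraries. In females, *Serpinh1* was at 105, 81.5, 109 and 90.7 TPM in the WT libraries and at 122, 136, 107 and 159 TPM in the KO libraries. Male KO replicate 1 lay below male WT replicate 4 for *Serpinh1*, and female KO replicate 3 lay below female WT replicate 3; the other 3 KO libraries of each sex lay above every WT library. Tested by limma, the log2 fold change for *Serpinh1* was 0.54 in males (SE 0.23, adjusted p = 0.256) and 0.44 in females (SE 0.17, adjusted p = 0.258). Without male WT replicate 1, the lowest library, the *Serpinh1* estimate in males was 0.32, while leaving out male WT replicate 4 gave 0.71.

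*Pcolce* (ENSMUSG00000029718, chromosome 5) encodes the enhancer of procollagen C-propeptide removal. In males, *Pcolce* was at 43.4, 42.1, 40.7 and 71 TPM in the WT libraries and at 76.6, 91.8, 87.5 and 84.0 TPM in the KO libraries. In females, *Pcolce* was at 28.5, 38.5, 34.4 and 41.2 TPM in the WT libraries and at 38.2, 23.7, 27.7 and 26.8 TPM in the KO libraries. The male groups did not overlap, although male WT replicate 4 lay far above the other male WT libraries. Female KO replicates 2, 3 and 4 lay below every female WT library for *Pcolce*, and female KO replicate 1 lay inside the WT range. The log2 fold change of *Pcolce* was 0.82 in males (SE 0.18, adjusted p = 0.146) and -0.30 in females (SE 0.18, adjusted p = 0.398). Without male WT replicate 4 the male estimate of *Pcolce* was 1.0 with an adjusted p of 0.0305, the only case in which leaving out a library brought a member under 0.05 in a single sex. The exact permutation p of *Pcolce*, 4 against 4 libraries, was 0.0286 in males and 0.143 in females.

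The library names carry prefixes whose meaning is not given in the sources used here. Within prefix 9, which held 3 KO and 2 WT males, the log2 difference was 0.70 for *Pcolce*, 0.68 for *Loxl2* and 0.59 for *Lox*, with each KO library above each WT library. *Plod1* at 0.44, *Serpinh1* at 0.34 and *Loxl1* at 0.21 also separated within prefix 9, while *Plod2* at 0.43, *P4ha1* at 0.35, *Plod3* at 0.30 and *P4ha2* at 0.25 overlapped. Those 6 of 10 members compare with 32.7% of all genes tested, which separated upward in the same 5 libraries. In females prefix 10 held 1 library of each genotype, and the log2 differences there were 0.98 for *P4ha1*, 0.92 for *P4ha2*, 0.54 for *Loxl1*, 0.49 for *Plod3*, 0.44 for *Plod1*, 0.41 for *Pcolce*, 0.23 for *Plod2*, 0.22 for *Serpinh1*, -0.04 for *Loxl2* and -0.71 for *Lox*. In that pair of libraries 8 of the 10 members were higher in KO, against 49.5% of all genes. Prefix 8b held 1 female KO and 3 female WT libraries, and the log2 differences there were 1.01 for *P4ha1*, 0.50 for *Plod2*, 0.25 for *Plod1* and 0.24 for *Loxl2*, with the KO library above each WT library, and -0.45 for *Pcolce*, with the KO library below. Those 4 higher members and 1 lower member compare with 23.2% and 19.9% of all genes. The other members overlapped within prefix 8b, at 0.41 for *P4ha2*, 0.22 for *Plod3*, 0.20 for *Serpinh1*, 0.06 for *Lox* and -0.11 for *Loxl1*. *Pcolce* in females therefore had opposite signs within prefixes 10 and 8b. With prefix as a covariate the median log2 fold change of the members was 0.39 in males and 0.27 in females, and 0 members had an adjusted p under 0.05 by limma, with 3 and 1 members at an unadjusted p under 0.05. In males this estimate rests on the 3 KO and 2 WT libraries of prefix 9. In females it rests on prefixes 10 and 8b, so in neither sex is it a comparison apart from those just given. Prefix 5 held only WT among males and prefix 10 only KO among males, while prefixes 5 and 9 held only KO among females, so for those libraries prefix and genotype cannot be told apart.

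The KO effects of the sexes were compared by subtracting the female from the male log2 fold change. For *Lox* the difference was 1.37 (SE 0.41, adjusted p = 0.216), and for *Pcolce* it was 1.12 (SE 0.26, adjusted p = 0.215). *Loxl2* followed with a difference of 0.48 (SE 0.23, adjusted p = 0.374). *P4ha1* had the most negative difference, -0.72 (SE 0.67, adjusted p = 0.646), which was -0.24 without female KO replicate 4. By limma, 0 of the 10 members had an adjusted p under 0.05 for this difference, against 0 of 12210 genes (0%), and 2 members, *Lox* and *Pcolce*, were positive at an unadjusted p under 0.05, against 11.7% of all genes. The differences ranged from 1.21 to 1.60 for *Lox* and from 1.03 to 1.30 for *Pcolce* when 1 library was left out at a time. Among the other members the difference was 0.10 for *Serpinh1*, -0.12 for *P4ha2*, -0.19 for *Plod1*, -0.26 for *Loxl1* and -0.27 for *Plod2*. The lowest difference was -0.50 for *Loxl1* and -0.34 for *Plod1*, both without female KO replicate 3, and the values nearest 0 were -0.03 for *Loxl1* without female KO replicate 4 and -0.03 for *Plod1* without female WT replicate 2. The difference for *Plod3* was -0.03 and was positive in 5 of the 16 fits that left out 1 library, up to 0.12 without female KO replicate 1. *Plod2*, *P4ha2* and *Serpinh1* also changed sign when single libraries were left out: *Plod2* was at 0.0328 without female KO replicate 4, *P4ha2* at 0.15 in the same fit, and *Serpinh1* at -0.12 without male WT replicate 1.

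Averaged over both sexes, which uses the same 16 libraries as the effects given above, all 10 members had a positive mean log2 fold change, and 9 did under median-of-ratios scaling, where *Lox* was at -0.01. The median of the members was 0.46, while the median of all genes was 0.13 and 75.5% of all genes were positive. By limma, 0 of the 10 members had an adjusted p under 0.05 over both sexes, against 360 of 12210 genes (2.95%), and 7 members were higher at an unadjusted p under 0.05, against 21.4% of all genes. The count of 7 was 4 with prefix as a covariate, 5 with median-of-ratios scaling and 5 to 8 when 1 library was left out. Leaving out 1 library moved the 360 genes to between 31 (0.255%), without male KO replicate 3, and 1055 (8.66%), without male WT replicate 2. Of the 360 genes, 317 were higher and 43 lower, and the split was 260 and 211 with median-of-ratios scaling and 373 and 170 without mitochondrial genes. *Loxl2* came closest with a mean log2 fold change of 0.44 (SE 0.12, adjusted p = 0.0527), followed by *Plod1* at 0.48 (SE 0.14, adjusted p = 0.0679) and *Serpinh1* at 0.49 (SE 0.14, adjusted p = 0.0699). *P4ha1* had the largest mean, 1.05 (SE 0.34, adjusted p = 0.0852). The means of *P4ha2*, *Plod2* and *Plod3* over both sexes were 0.59, 0.51 and 0.33 log2. *Loxl1* at 0.37, *Pcolce* at 0.26 and *Lox* at 0.11 had adjusted p values of 0.264, 0.235 and 0.745. Leaving out 1 library moved the mean of *Lox* between 0.0059 and 0.23 log2.

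Those adjusted p values over both sexes crossed 0.05 when single libraries were left out. For *Loxl2* the adjusted p was 0.0405 without male WT replicate 2, 0.0403 without male WT replicate 4, 0.0418 without female WT replicate 1, 0.0367 without female KO replicate 2 and 0.049 without female KO replicate 3. For *Plod1* it was 0.0405 without male WT replicate 2, 0.0429 without female WT replicate 1 and 0.0314 without female KO replicate 3. *Serpinh1* reached an adjusted p of 0.0378 without male WT replicate 4 and 0.049 without female KO replicate 3, and *P4ha1* reached 0.0491 without female KO replicate 2. With prefix as a covariate the median of the members over both sexes was 0.28 log2. Scaled to matched transcripts, a setting chosen after seeing the data, the adjusted p over both sexes was 0.0914 for *Loxl2*, 0.112 for *Serpinh1*, 0.117 for *Plod1* and 0.133 for *P4ha1*, and the 360 genes called became 80. Female WT replicate 4 stood apart in that respect: 82.3% of its TPM matched a gene, against 99.5 to 99.7% in the other 15 libraries, and its most abundant transcript held 16.5% of its TPM, which lowers its gene values. In females that scaling gave a median of 0.41 log2 for the members in place of 0.47.

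WT males and WT females differ in prefix as well as in sex, and they are also the WT libraries of the KO effects. Male minus female log2 differences among WT were 0.43 for *Pcolce*, 0.40 for *Loxl1*, 0.23 for *Lox* and 0.20 for *Serpinh1*. They were 0.07 for *Plod1*, 0.04 for *Plod3*, -0.14 for *P4ha2*, -0.20 for *Loxl2*, -0.24 for *Plod2* and -0.29 for *P4ha1*. By limma, 0 of the 10 members had an adjusted p under 0.05 between WT males and WT females, against 8 of 12042 genes (0.0664%), and 0 members had an unadjusted p under 0.05, against 3.43% of all genes. The exact permutation p of *Pcolce* for this comparison, 4 against 4 libraries, was 0.0571. The median of the members was 0.05 log2, and the median of all genes was also 0.05. With the skeletal muscle covariate, chosen after seeing the data, these medians were 0.27 and 0.11 log2. They were 0.20, with 9 members tested, and 0.10 without female WT replicate 1. Without female WT replicate 2 they were -0.08 and 0.01.

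The collagen and elastin chains that these enzymes act on were followed as a list of 12 genes. In males 12 of the 12 had a positive log2 fold change under every scaling, against 79.9% of all genes as reported. Their median in males was 0.92, and 11 separated without overlap, against 9.54% of all genes. Their adjusted p by limma was under 0.05 for 0 of the 12 in males, and 12 were higher at an unadjusted p under 0.05, against 17.7% of all genes. In females 12 of the 12 were positive, against 62.7% of all genes, 10 with median-of-ratios scaling and 9 without mitochondrial genes. Their median in females was 0.33, and 0 separated without overlap, against 4.9% of all genes. Adjusted p by limma was under 0.05 for 0 of the 12 in females, and 4 were higher at an unadjusted p under 0.05, against 11.6% of all genes. The summed TPM of the list in males was 196, 344, 225 and 319 in the WT libraries and 430, 489, 489 and 499 in the KO libraries. In females the summed TPM of these chains was 334, 228, 357 and 333 in the WT libraries and 550, 354, 358 and 463 in the KO libraries. *Col4a1* was the most abundant chain, at a mean of 120 TPM.

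In males *Col1a1* was at 4.8, 9.27, 5.38 and 9.67 TPM in the WT libraries and at 17.6, 18.9, 16.8 and 18.3 TPM in the KO libraries. Its log2 fold change was 1.30 in males (adjusted p = 0.123) and 0.15 in females, against 0.82 and -0.30 for *Pcolce*, which acts on the same procollagen. *Col1a2* was at 1.01 and 0.27 log2 in males and females, *Col3a1* at 0.97 and 0.22, and *Eln*, the substrate of *Loxl1* and *Lox* in elastic fibres, at 0.78 and 0.89. Over both sexes 7 of the 12 chains had an adjusted p under 0.05 by limma, against 2.95% of all genes, a share that ran from 0.255% to 8.66% when 1 library was left out: *Col1a2*, *Col5a3*, *Col6a1*, *Col6a2*, *Col6a3*, *Col4a1* and *Col4a2*. Each of these 7 kept its call in 6 to 11 of the 16 fits that left out 1 library, 0 kept it with prefix as a covariate, and 1 of the 12 was called when scaled to matched transcripts. The mean log2 fold change of *Col1a2* over both sexes was 0.64 (adjusted p = 0.0347), and its adjusted p was 0.0773 without female KO replicate 1.

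Relative to fibrillar collagen, taken as the sum of *Col1a1*, *Col1a2* and *Col3a1*, the members were compared within each sex, and the ratio was not tested between the sexes. The sum itself had a log2 difference of 1.03 in males and 0.22 in females, while the members had medians of 0.53 and 0.47. In males the ratio of member to collagen had a negative log2 difference for all 10 members, with a median of -0.49, while the median of all genes was -0.87 and 98.5% of all genes were negative. For 5 members every male KO library lay below every male WT library in this ratio, against 79.1% of all genes: *Loxl1* at -0.79, *Plod3* at -0.72, *Plod2* at -0.65, *Plod1* at -0.64 and *Serpinh1* at -0.49. With a pseudocount of 0.1 in place of 0.5 this count was 3, since *Loxl1* and *Plod2* then overlapped. *Pcolce* at -0.21, *Lox* at -0.23, *P4ha1* at -0.34 and *Loxl2* at -0.35 were closest to the collagens in males. In females the ratio was negative for 3 members, *Lox* at -0.79, *Pcolce* at -0.52 and *Loxl2* at -0.01, and 0 members separated downward, against 0.478% of all genes. With a pseudocount of 0.1 the *Loxl2* ratio in females was 0.03, and 2 members were negative. *P4ha1* had a ratio of 1.19 log2 in females, and the median of the members was 0.25, while that of all genes was -0.11. With the summed fibroblast markers as the denominator the male median was 0.26 in place of -0.49, so the sign of the male ratio depended on the denominator. The median of all genes with that denominator was -0.11 in males and -0.28 in females. In females it gave a median of 0.08 for the members and a *Pcolce* ratio of -0.69, with each KO library below each WT library, as for 5.29% of all genes.

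Other genes of collagen processing were listed beside the members, 33 in all. In males 25 of the 26 tested were positive, against 79.9% of all genes, and 20 with median-of-ratios scaling. The median log2 fold change of the list in males was 0.26. Of these 26 genes, 0 had an adjusted p under 0.05 by limma in males, and 9 were higher at an unadjusted p under 0.05, against 17.7% of all genes. In females 21 of the 27 tested were positive, against 62.7% of all genes, with a median of 0.19. The count was 15 of 26 with median-of-ratios scaling and 16 without mitochondrial genes. In the same list, 0 of the 27 by limma had an adjusted p under 0.05 in females, and 4 were higher and 1 lower at an unadjusted p under 0.05, against 11.6% and 5.46% of all genes. *P4hb*, the partner of *P4ha1* and *P4ha2*, was at 0.10 log2 in males and 0.44 in females. *Bmp1*, the proteinase that *Pcolce* assists, was at 0.54 log2 in males, without overlap, and at 0.16 in females. Among endoplasmic reticulum genes of the list, beside *Serpinh1*, male and female log2 fold changes were 0.34 and 0.38 for *Fkbp10*, 0.23 and 0.46 for *P3h1*, 0.14 and 0.20 for *Crtap* and 0.07 and 0.30 for *Ppib*. They were 0.26 and 0.02 for *Fkbp14*, and 0.31 and -0.59 for *Tmem38b*.

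Of the listed processing genes, 4 of the 26 tested separated upward in males, against 9.54% of all genes. In females 3 of the 27 tested did, against 4.9%. By limma 2 of the 27, *Loxl3* and *Sparc*, had an adjusted p under 0.05 over both sexes, against 2.95% of all genes. Scaled to matched transcripts, 1 was called. *Loxl3*, a lysyl oxidase-like gene outside the 10 members, separated in both sexes. In males, *Loxl3* was at 0.827, 0.875, 0.765 and 0.755 TPM in the WT libraries and at 1.14, 1.5, 1.95 and 1.53 TPM in the KO libraries. In females, *Loxl3* was at 0.865, 0.62, 0.645 and 0.462 TPM in the WT libraries and at 1.37, 1.08, 1.42 and 1.6 TPM in the KO libraries. Its mean log2 fold change over both sexes was 0.66 (adjusted p = 0.0195), against 0.44 for *Loxl2*. *Loxl3* had group means of 0.805 and 0.648 TPM in male and female WT and 1.53 and 1.37 TPM in male and female KO, so it passed the minimum mean of 1 TPM only through its KO libraries and was not tested between WT males and WT females. With no TPM minimum its adjusted p over both sexes was 0.0277. The adjusted p of *Loxl3* stayed under 0.05 in 12 of the 16 fits that left out 1 library and was 0.0566 without male KO replicate 3. It was 0.0539 by limma with the replicate block and 0.132 with prefix as a covariate. *Sparc*, which encodes a collagen-binding matrix protein, had a mean of 0.42 log2 over both sexes (adjusted p = 0.0341), which stayed under 0.05 in 8 of the 16 fits and was 0.0793 without female KO replicate 1 and 0.177 with prefix as a covariate.

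Proteins that bring lysyl oxidases to the matrix were listed as 10 partner genes, of which 7 were tested, and *Dpt* is in this list and in the fibroblast list. In males 6 of the 7 were positive, against 79.9% of all genes, with a median of 0.43 log2. *Fn1* at 1.31, *Efemp2* at 0.62 and *Fbn1* at 0.47 separated without overlap, as *Loxl2* did, against 9.54% of all genes. In females 4 of the 7 were positive, against 62.7% of all genes, or 4 of 8 without mitochondrial genes. *Fbln5* at 0.69 log2 separated without overlap in females, against 4.9% of all genes. By limma 2 of the 7 had an adjusted p under 0.05 over both sexes, against 2.95% of all genes. That share of all genes ran from 0.255% to 8.66% when 1 library was left out. Scaled to matched transcripts, 1 of the 7 was called. Over both sexes *Fn1* had a mean of 0.87 log2 (adjusted p = 0.0184), which stayed under 0.05 in 14 of the 16 fits that left out 1 library, with 0.0522 as the highest value, and was 0.0922 with prefix as a covariate. *Efemp2* had a mean of 0.47 log2 (adjusted p = 0.0252), under 0.05 in 9 of the 16 fits, with 0.0635 as the highest value, and 0.135 with prefix as a covariate. Regulators of the members in the TGF-beta and hypoxia pathways were listed as 18 genes, of which 15 were tested. In males 15 of the 15 were positive, against 79.9% of all genes, and 13 with median-of-ratios scaling. *Ccn2* at 1.42, *Egln3* at 0.43 and *Smad3* at 0.33 log2 separated without overlap in males, against 9.54% of all genes. In females 9 of the 15 were positive, against 62.7% of all genes, with a median of 0.25 log2. Without mitochondrial genes 8 of 16 were positive, with a median of 0.04. *Pdk1* at -0.99 and *Tgfbr1* at -0.46 log2 separated downward in females, against 3.19% of all genes, and *Hif1a* stood at -0.44 with overlap. Among other hypoxia genes of the list *Ankrd37* was at 0.76, *Egln3* at 0.42, *Vegfa* at 0.37, *Slc2a1* at 0.36 and *Epas1* at -0.08 log2 in females, all with overlap. At an unadjusted p under 0.05, 2 regulators were higher and 5 lower in females, against 11.6% and 5.46% of all genes, and 0 had an adjusted p under 0.05 by limma. Over both sexes 0 of the 15 regulators had an adjusted p under 0.05 by limma, and 7 were higher and 1 lower at an unadjusted p under 0.05, against 2615 and 315 of 12210 genes.

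In these whole-tissue libraries fewer cells of a type and less RNA per cell cannot be told apart, so marker lists are given beside the members, and their part in the results was not tested. The fibroblast or progenitor list of 11 genes, with *Gsn* the most abundant at a mean of 315 TPM, summed in males to 385, 573, 323 and 584 TPM in WT and to 620, 549, 520 and 502 TPM in KO. In females the fibroblast sum was 475, 474, 536 and 501 TPM in WT and 836, 483, 587 and 744 TPM in KO, with overlap in both sexes. Of these 11 genes, 11 were positive in males, against 79.9% of all genes, and *Pi16*, *Mfap5* and *Cd34* separated, against 9.54%. In females 10 of the 11 were positive, or 8 under each of the 3 other scalings, against 62.7% of all genes, and *Cd34* and *Clec3b* separated, against 4.9%. *Mfap5* of this list, at 1.61 log2 (adjusted p = 0.0196), was the 1 gene with an adjusted p under 0.05 in males, and it kept the call in 2 of the 8 fits that left out 1 male library, with 0.141 as the highest value. The macrophage list, with *Lyz2* the most abundant at 40.9 TPM, summed in males to 47.1, 91.3, 57.4 and 90.1 TPM in WT and to 118, 168, 131 and 172 TPM in KO, without overlap. Of the 9 macrophage genes tested in males, 6 separated upward, against 9.54% of all genes. In females the macrophage sum was 70.8, 73.5, 121 and 55.5 TPM in WT and 112, 77.9, 83 and 100 TPM in KO, with overlap. There 0 of the 9 tested separated upward and *Mrc1* separated downward, against 4.9% and 3.19% of all genes.

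The endothelial list, with *Cdh5* the most abundant at 64.4 TPM, summed in females to 204, 151, 195 and 218 TPM in WT and to 478, 258, 251 and 363 TPM in KO, without overlap, while *P4ha1* and *Plod1* overlapped in the same libraries. In males the endothelial sum ran from 160 to 299 TPM in WT and from 249 to 284 TPM in KO. Of the 8 endothelial genes, 5 separated upward in females and 0 in males, against 4.9% and 9.54% of all genes. The smooth muscle or pericyte list, with *Rgs5* the most abundant at 98.9 TPM, summed in females to 181, 161, 170 and 161 TPM in WT and to 304, 197, 271 and 321 TPM in KO, without overlap. Its sum in males ran from 159 to 239 TPM in WT and from 204 to 291 TPM in KO. Of this list, 2 of the 9 tested separated upward in females and 2 of the 8 tested in males. Over both sexes marker genes with an adjusted p under 0.05 by limma were *Mfap5*, *Cd34*, *Pi16* and *Clec3b* of the fibroblast list, *Cd68*, *C1qa* and *C1qb* of the macrophage list, *Cdh5* and *Tie1* of the endothelial list and *Rgs5* and *Pdgfrb* of the smooth muscle or pericyte list, while 0 of the 10 members were called. All genes were called at 2.95%, or 0.255% to 8.66% when 1 library was left out. *Mfap5* at 0.99 log2 (adjusted p = 0.0133) and *Cd34* at 0.76 (adjusted p = 0.0114) kept that call in 16 of the 16 fits that left out 1 library, and the other 9 marker genes in 4 to 10 fits. With prefix as a covariate only *Mfap5* kept it, at an adjusted p of 0.037, and *Cd34* was at 0.0761. Scaled to matched transcripts, 3 fibroblast markers were called over both sexes. In that setting 0 macrophage, 0 endothelial and 0 smooth muscle or pericyte markers were called. Skeletal muscle markers, with *Acta1* the most abundant at 275 TPM, summed in males to 1199, 1673, 216 and 16.4 TPM in WT and to 3842, 333, 2144 and 8.94 TPM in KO. In females the skeletal muscle sum was 2.41, 1144, 73.8 and 1.92 TPM in WT and 9.67, 6.17, 3443 and 331 TPM in KO. With the log2 of that sum as a covariate, a setting chosen after seeing the data, 4 members had an adjusted p under 0.05 over both sexes, against 822 of 12210 genes (6.73%): *Plod1* at 0.0285, *Loxl2* at 0.032, *Serpinh1* at 0.0381 and *P4ha1* at 0.0432. Brown adipocyte markers summed to between 11010 and 22145 TPM. Of these, 2 of 10 were positive in males and 9 of 10 in females, against 79.9% and 62.7% of all genes. Schwann cell markers, with *S100b* the most abundant at 134 TPM, overlapped in both sexes, and all 5 mesothelial markers had a mean TPM under 1, with *Krt19* the highest at 0.738. No gene of these lists was at 0 in every library.

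Transcripts of the members were compared as shares of the TPM of their gene. The most abundant *Serpinh1* transcript carried 70.4% of *Serpinh1* TPM on average and the next 21.8%. A pair of *Lox* transcripts carried 58.5% and 41.5% of *Lox* TPM, and a single transcript carried 90.3% of *Plod1* TPM. The leading *Plod3* transcripts carried 46.6% and 32.9% of *Plod3* TPM. Transcripts annotated as protein coding made up 57.5% of *P4ha2* TPM, 78.8% of *Plod2* TPM, 79.5% of *Plod3* TPM and 88.7% of *Pcolce* TPM.

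Coding *Plod2* transcripts differ by a 63-base exon, exon 14 of 20 in the transcript that has it. In males the share of coding *Plod2* TPM with that exon was 100, 100, 64.3 and 100% in the WT libraries and 65.3, 64.9, 65.2 and 84.9% in the KO libraries. In females the share with the 63-base exon was 57.7, 65.4, 73.7 and 0% in the WT libraries and 58.4, 100, 78.6 and 48% in the KO libraries. The groups overlapped in both sexes, and these shares were taken at a mean *Plod2* level of 1.44 TPM.

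*P4ha1* has a pair of 71-base exons, exon 9 of 15, of which a transcript carries 1. The downstream one made up 76.1 ± 6.69% of coding *P4ha1* TPM in male WT and 83.5 ± 2.61% in male KO, and 76.3 ± 3.13% in female WT and 78.3 ± 4.86% in female KO (mean ± SD, n = 4). Another coding *P4ha1* transcript lacks the 240-base exon 6, and the share of coding *P4ha1* TPM with that exon was 52.2 ± 7.41% in male WT, 60.3 ± 6.81% in male KO, 63.9 ± 11.6% in female WT and 47.3 ± 2.69% in female KO. Coding *P4ha2* transcripts carried either a 66-base or a 60-base exon, and the 60-base share was 63.8 ± 15.3% and 58.7 ± 15.7% in male WT and KO and 64.5 ± 23.8% and 62.3 ± 5.64% in female WT and KO. Of 19 member transcripts with a mean share between 10 and 90%, 1 separated downward in female KO, against 3.79% of all such transcripts, and 0 separated upward. It was the *P4ha1* transcript with the 240-base exon and the downstream 71-base exon, which made up 40.2 ± 9.59% of *P4ha1* TPM in female WT and 25.6 ± 2.92% in female KO, and 28.3 ± 7.61% in male WT and 43.8 ± 9.35% in male KO.

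**Figure D3:**
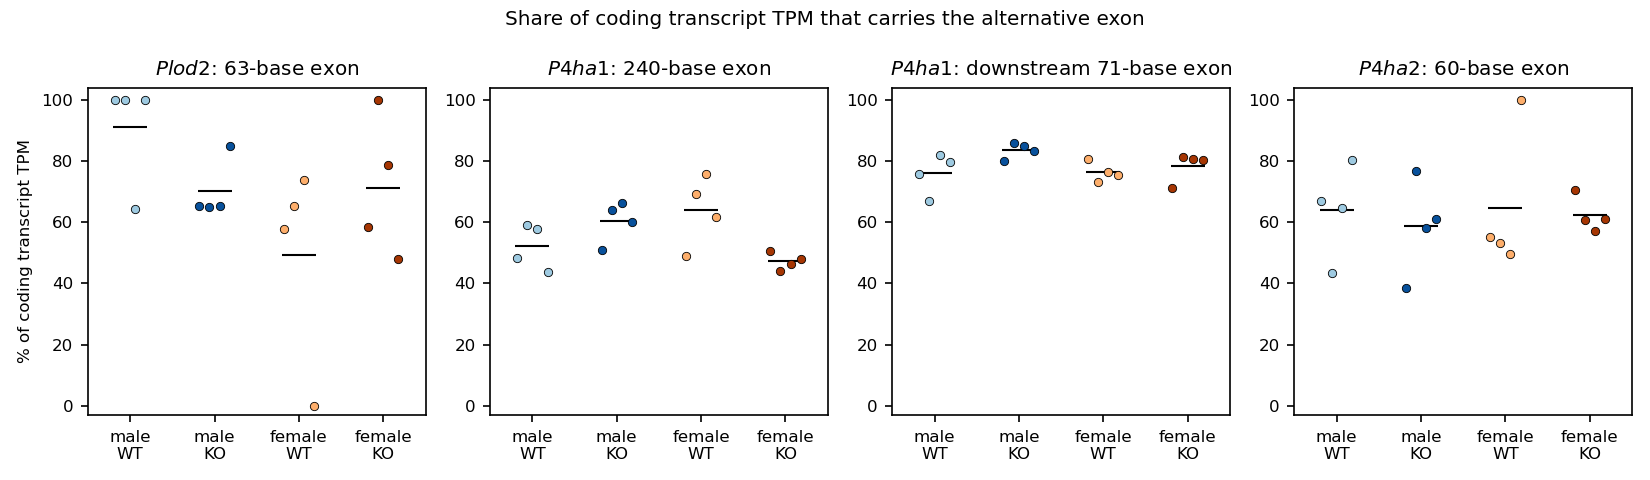
Share of coding TPM in percent (vertical axis) that carried the 63-base *Plod2* exon, the 240-base *P4ha1* exon, the downstream 71-base *P4ha1* exon and the 60-base *P4ha2* exon in the 4 groups (horizontal axis), with 1 point per library and a line at the mean. The 63-base *Plod2* exon had means of 91.1% in male WT and 70.1% in male KO, with overlap.

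Covariation among the members was described over the 16 libraries after group means were removed from log2 TPM. Of the 45 pairs of members, 39 had a positive correlation, and the median r was 0.51 (n = 16). The same values were not computed for pairs of other genes. It is therefore not known whether the members covaried more than other genes did. *P4ha1* was close to both *Plod2* (r = 0.877, Spearman 0.803, n = 16) and *P4ha2* (r = 0.876, Spearman 0.903, n = 16). Without male WT replicate 4 and female KO replicate 4 these r were 0.784 and 0.801 (n = 14). *Loxl1* and *Plod1* had r = 0.844 (Spearman 0.788, n = 16), and 0.793 without female KO replicates 3 and 4. *Lox* and *Loxl1* were the most negative pair (r = -0.63, n = 16), at -0.53 without the farthest pair of libraries. Among genes with a mean of at least 5 TPM, the ones most like *Lox* were *Nudt4* at 0.949, *Scd1* at 0.945 and *Hsd11b1* at 0.934 (n = 16). These genes and the ones that follow were picked as the highest of 7593 or 7594 genes, a choice that favours a high r. *P4ha2* was closest to *Hsph1* at 0.959 and *Dnaja1* at 0.954, and *P4ha1* to *Chordc1* at 0.948 and *Sash1* at 0.931. *Plod2* was closest to *Hmox1* at 0.915 and *Atg12* at 0.9, and *Pcolce* to *Anxa1* at 0.85 and *Ccn1* at 0.847. *Loxl1* was closest to *Safb* at 0.954, *Loxl2* to *Tollip* at 0.944, *Plod1* to *Itsn2* at 0.957, *Plod3* to *Wdr45* at 0.948 and *Serpinh1* to *Yy1* at 0.956.

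Promoter windows of 300 bases that span the annotated start were read from RefSeq (GRCm38.p6) for 6 members, *Plod1*, *Plod3*, *P4ha1*, *P4ha2*, *Serpinh1* and *Pcolce*, and not for *Lox*, *Loxl1*, *Loxl2* and *Plod2*. Both strands were searched for ACGTG and GCGTG, the cores of hypoxia response elements, and for CAGAC, a SMAD-binding core. ACGTG was found in 4 of the 6 windows, against 19.6% of 32817 promoters, GCGTG in 5 of the 6, against 32.4%, and 1 or both in 6 of the 6, against 43.8%. CAGAC was found in 2 of the 6 windows, against 49.6% of all promoters. The median GC content was 63.3% in the member windows and 52.7% in all promoters, and a match to a motif is only a description of the sequence. The window of *P4ha1*, the member with the largest female estimate, is shown from the plus strand of chr10:59323046-59323345, with both hypoxia cores and their reverse complements in capitals, and it holds ACGTG at 1 place and GCGTG at 2.
P4ha1: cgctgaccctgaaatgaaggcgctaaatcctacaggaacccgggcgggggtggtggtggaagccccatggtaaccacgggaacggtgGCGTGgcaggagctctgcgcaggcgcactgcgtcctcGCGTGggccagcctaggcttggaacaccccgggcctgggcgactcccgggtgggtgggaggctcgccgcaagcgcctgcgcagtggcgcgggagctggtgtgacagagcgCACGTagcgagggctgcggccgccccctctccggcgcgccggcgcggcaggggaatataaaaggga
The window of *P4ha2*, the other catalytic subunit, is shown in the same way from the plus strand of chr11:54100674-54100973 (RefSeq, GRCm38.p6), and it holds ACGTG at 2 places and GCGTG at 2.
P4ha2: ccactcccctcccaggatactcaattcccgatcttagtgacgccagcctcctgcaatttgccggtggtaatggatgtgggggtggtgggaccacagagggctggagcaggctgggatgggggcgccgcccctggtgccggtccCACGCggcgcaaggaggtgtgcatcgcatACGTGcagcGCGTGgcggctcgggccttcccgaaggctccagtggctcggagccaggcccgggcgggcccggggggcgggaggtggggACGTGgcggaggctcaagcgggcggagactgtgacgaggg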

How the data were processed

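PolyA RNA of BAT from 16 mice was sequenced by the authors from stranded libraries, with 4 libraries for each sex and genotype. Per the submitters' processing notes, the reads were quantified with kallisto 0.46.2 on GRCm39, and the authors deposited TPM per transcript; the annotation release behind it is not given in the sources used here. The authors' DESeq2 analysis was not used here. TPM of transcripts was summed per gene symbol with GENCODE M21: 135051 of 137438 transcripts matched, 37 of them by version, 2387 did not, and 64 of the 49066 symbols had more than 1 identifier. By TPM, 99.5 to 99.7% matched in 15 libraries and 82.3% in female WT replicate 4. GENCODE M21 and the RefSeq promoters are on GRCm38, so exons are given by length and number only.

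Genes with a mean of at least 1 TPM were tested on log2(TPM + 0.5) with limma 3.58.1 (R 4.3.3, eBayes with trend), with p adjusted over all tested genes and called under 0.05. Each sex was fitted on its 8 libraries, and the difference between the sexes and the mean over both on 16. These p-values measure the spread between samples. Exact permutation p-values used all 70 assignments of 4 against 4 libraries, the smallest possible being 0.0286. Tables and figures were made with Python 3.11.15, numpy 2.4.6, pandas 2.3.3 and matplotlib 3.10.9. The tests were tested on simulated data with known fold changes, larger than any estimate of a member and drawn independently for each gene. That simulation does not show how well changes of the size of the members' are called. Sequencing depth is unknown, since TPM hides it, so how few reads a low value rests on cannot be given. Covariation with other genes used those with a mean of at least 5 TPM.

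The genes named are the 10 members and the genes of lists named by function: collagen and elastin substrates, other collagen processing genes, lysyl oxidase partners, regulators, and markers of fibroblasts or progenitors, macrophages, endothelial cells, smooth muscle or pericytes, skeletal muscle, brown adipocytes, Schwann cells and mesothelium. The members and lists were chosen with earlier results of these data known. Alternatives changed the pseudocount, TPM minimum, scaling, transcript types, variance trend, replicate block and library prefix covariate and left out each library in turn; scaling to matched transcripts and a skeletal muscle covariate were chosen after seeing the data.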

Additional observations from a re-analysis of the deposited data

Results flagged for a closer look

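In 40 groups of 4 libraries, 10 members in 4 groups, the highest or lowest value was compared with the others by the gap to its neighbour over the range of the group, with the Dixon limit for 4 values. *Plod2* in female WT replicate 1, at 1.89 TPM, and *Pcolce* in male WT replicate 4, at 71 TPM, were each the highest of 4 and lay past that limit. Chance puts about 1 in 20 groups past it, and 2 of 40 were. The KO effect in males minus females was estimated at 1.37 log2 for *Lox* (limma, adjusted p = 0.216) and 1.12 log2 for *Pcolce* (limma, adjusted p = 0.215). Both were positive at an unadjusted p under 0.05 only, against 11.7% of all genes. The causes were not tested.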

How the results depend on the processing

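No member had an adjusted p under 0.05 by limma as reported, so no call of a member could be lost. Of 968 values of single members under the alternatives, 21 moved under an adjusted p of 0.05 and 15 changed sign. Those values cover the KO effects in each sex, their difference and their mean, and the cause was not tested. They leave out WT males against WT females, where 6 members were positive as reported and 4 to 8 under the alternatives. In males the 1 gene called became 2 with a pseudocount of 0.1, 0 with no TPM minimum, 3 with median-of-ratios scaling, 12 without mitochondrial genes, 20 with protein-coding transcripts, 6 with prefix as a covariate, 3 with the skeletal muscle covariate and 40 with all 16 libraries in a single fit. In females the 0 genes called became 8 with prefix as a covariate and 5 with all 16 libraries in a single fit. For the difference between sexes 1 gene was called without the variance trend. Over both sexes the 360 genes called became 54 with no TPM minimum, 177 with a minimum of 5 TPM, 543 without mitochondrial genes, 720 with protein-coding transcripts, 12 with prefix as a covariate, 80 when scaled to matched transcripts and 822 with the skeletal muscle covariate. Between WT males and WT females the 8 became 3 with a minimum of 5 TPM and 4 with protein-coding transcripts. Members called over both sexes became 3 with protein-coding transcripts (*P4ha2* at an adjusted p of 0.0316, *Loxl2* at 0.035 and *Plod1* at 0.0463), 1 without the variance trend (*Loxl2* at 0.0453) and 4 with the skeletal muscle covariate.

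With the replicate block 0 genes were called in males, 1 in females and 60 over both sexes, where 1 member, *P4ha1*, had an adjusted p of 0.0499. Libraries of the same replicate number were not alike: correlations of WT with KO of the same number ran from -0.08 to 0.35 in males and from -0.12 to 0.15 in females.

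Members separating upward in females numbered 1 with median-of-ratios scaling (*Serpinh1*) and 1 with protein-coding transcripts (*P4ha2*). The median ratio of member to collagen in males was 0.26 with fibroblast markers as the denominator, reversed from -0.49. The difference between sexes changed sign for *Plod1* with prefix as a covariate (0.0459) and for *Plod3* without mitochondrial genes (0.0152) and when scaled to matched transcripts (0.0339). *Lox* over both sexes was at -0.00541 with median-of-ratios scaling and at -0.0142 without mitochondrial genes. The median of all genes shifted by -0.11 log2 in males with no TPM minimum, by -0.15 in males with median-of-ratios scaling and by -0.14 in females without mitochondrial genes; over both sexes the shifts were -0.11, -0.12 and -0.12.

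Leaving out 1 library at a time gave 0 to 5 genes called in males, 0 to 9 in females, 0 to 3 for the difference between sexes, 31 to 1055 over both sexes and 5 to 11 between WT males and WT females. Members called ranged from 0 to 1 in males, 0 to 0 in females and 0 to 3 over both sexes. The median of the members ranged from 0.33 to 0.74 in males, 0.32 to 0.62 in females, -0.21 to 0.09 for the difference, 0.38 to 0.51 over both sexes and -0.08 to 0.20 between WT males and WT females. Members separating upward ranged from 2 to 6 in males and 0 to 2 in females, and downward from 0 to 1 in females. The ratio to collagen ranged from -0.60 to -0.37 in males and from 0.07 to 0.41 in females. The difference between sexes ranged from -0.50 to -0.03 for *Loxl1*, -0.34 to -0.03 for *Plod1*, -0.50 to 0.0328 for *Plod2*, -0.13 to 0.12 for *Plod3*, -0.38 to 0.15 for *P4ha2* and -0.12 to 0.28 for *Serpinh1*.

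Prefix as a covariate could not be fitted between WT males and WT females, where prefix and sex cannot be told apart, and was not run. Within each sex the fit with that covariate drew the KO effect only from prefixes that held both genotypes. With 4 libraries per group, small differences can be missed, and a p above 0.05 does not show that values were equal. TPM of each library sum to the same total, so a large share for mitochondrial genes, 34.5 to 59.8%, lowers the rest. Depth is unknown, so the precision of *Plod2* and *Loxl2*, near 1 to 2 TPM, cannot be given. RNA levels do not give enzyme activity, protein or crosslinks, which were not analysed here.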
